A study of Mus musculus with 9 samples.

Results

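Cytochrome P450 enzymes of families 1 to 3 were measured in liver pieces from male mice aged 14 weeks. The members are all genes of the array annotation whose symbol is Cyp1, Cyp2 or Cyp3 followed directly by a letter, without the Cyp2b subfamily: 43 genes on 48 probe sets, out of 18193 genes tested on the array. A probe set is the group of short DNA probes that reports 1 transcript. Of the 43 genes, 39 had a probe set of their own and 4 were reported only in pairs, Cyp2a4 with Cyp2a5 and Cyp3a41a with Cyp3a41b. The controls were 5 samples from C57BL/KSlepr+/+ (BKS) mice with an intact leptin receptor gene, and the other group was 4 samples from BKS.Cg-Leprdb (db/db) mice, littermates that carry the db mutation of that receptor in the whole body and had become obese and diabetic with a fatty liver. Both groups had standard chow without restriction, and the labels name no drug. Because db acts on how the receptor's transcript is spliced, the 4 Lepr probe sets, none of which passed the test (adjusted p from 0.335 to 0.881), do not check the genotype.

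Cytochrome P450 enzymes hold a heme group and insert oxygen into fat-soluble molecules, with electrons passed on by a reductase and cytochrome b5 in the endoplasmic reticulum. Families 1 to 3 are best known in hepatocytes for clearing drugs and other foreign compounds, and many members also hydroxylate steroids, bile acids, retinoids and fatty acids. Their genes are switched on by receptors that sense foreign and internal compounds, chiefly AHR, PXR (Nr1i2) and CAR (Nr1i3), and in mice a good number differ between male and female liver under the control of growth hormone.

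Levels are given as log2(signal + 16) after quantile normalization, where signal is the deposited intensity of a probe set; a difference of 1 on this scale is a doubling for bright probe sets and understates the change of dim ones. The median gene stood at 7.43. Any pair of arrays correlated at 0.919 to 0.967 over genes. The arrays fell into 2 sets by the signal of a control probe set for 18S ribosomal RNA, 22.2 to 43.5 on BKS 1 to 3 and db/db 1 and 2 (low 18S) and 1873 to 19771 on BKS 4 and 5 and db/db 3 and 4 (high 18S). Both sets hold both genotypes, and differences within each set are given where they bear on a result. None of 6 hepatocyte markers passed the test (median log2 fold change 0.03, summed signal 161880 to 325417 in BKS and 159372 to 258688 in db/db). Of 38 measured markers of other cell types 1 was called, Alas2 of red cell precursors, which fell by 1.20 (adjusted p = 0.0114). With the 18S split in the model 3 were higher and 4 lower. Over all genes 5.49% were called, and 8.23% with the split in the model. The other measured red cell marker, Hba-a1, was not called and its groups overlapped (0.07, adjusted p = 0.968). Its mean in BKS was 6.09, against 11.47 for Alas2, so the red cell sum mostly follows Alas2. The summed signal of the 2 red cell markers was 2093 to 4006 in BKS and 840.2 to 2102 in db/db. That of 7 stellate cell markers was 3056 to 13377 and 6713 to 15352, and that of 7 Kupffer cell markers 3109 to 8758 and 1820.5 to 4992. The 5 measured cholangiocyte markers summed to 530.1 to 742.6 in BKS and 238.5 to 586.7 in db/db. None of these stellate, Kupffer and cholangiocyte markers was called, and with the split in the model 2 stellate markers were higher and 2 Kupffer and 1 cholangiocyte marker lower. Their part in the results was not tested. In bulk liver fewer cells of a type and less RNA per cell cannot be told apart. Samples carry only a number, and no label ties each to a mouse of its own, so the p-values reflect sample-to-sample spread, which may be technical.

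In db/db liver 5 P450 genes rose, Cyp2c39, Cyp2c38, Cyp2g1, Cyp2c68 and Cyp2c50, and 6 fell, Cyp2d9, Cyp2c70, Cyp2u1, Cyp2c55, Cyp1a2 and Cyp2j6 (limma, Benjamini-Hochberg adjusted p under 0.05 over all genes). Over all 18193 genes 5.49% were called, 2.89% higher and 2.60% lower, against 28.2% of the 39 P450 genes. The 2 shared probe sets, tested with all 45037 probe sets of the array, rose as well. Of all probe sets 2.78% were called, 1.58% higher and 1.19% lower, and of the 48 P450 probe sets 7 were higher and 5 lower. The changes ran both ways, and the median log2 fold change of the 39 genes was 0.03, against 0.00 for all genes. The median size of the change, whatever its sign, was 0.28 for these genes and 0.29 for all genes. At an unadjusted p under 0.05 there were 17 of the 39 (43.6%), against 17.6% of all genes. Groups did not overlap in 15 of the 39 (38.5%), the 11 called ones included, against 9.15% of all genes. Of the 39 genes 29 were brighter than the median gene, and these shares over all genes are not matched for brightness. With the 18S split as a block 7 P450 genes rose and 7 fell (8.23% of all genes were called), the 11 among them. The calls of Cyp2g1, Cyp2c55, Cyp1a2 and Cyp2j6 are the weak ones: each was lost in 6 or more of the 9 fits that left out 1 array, while the other 7 were called in all 9.

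**Figure D1:**
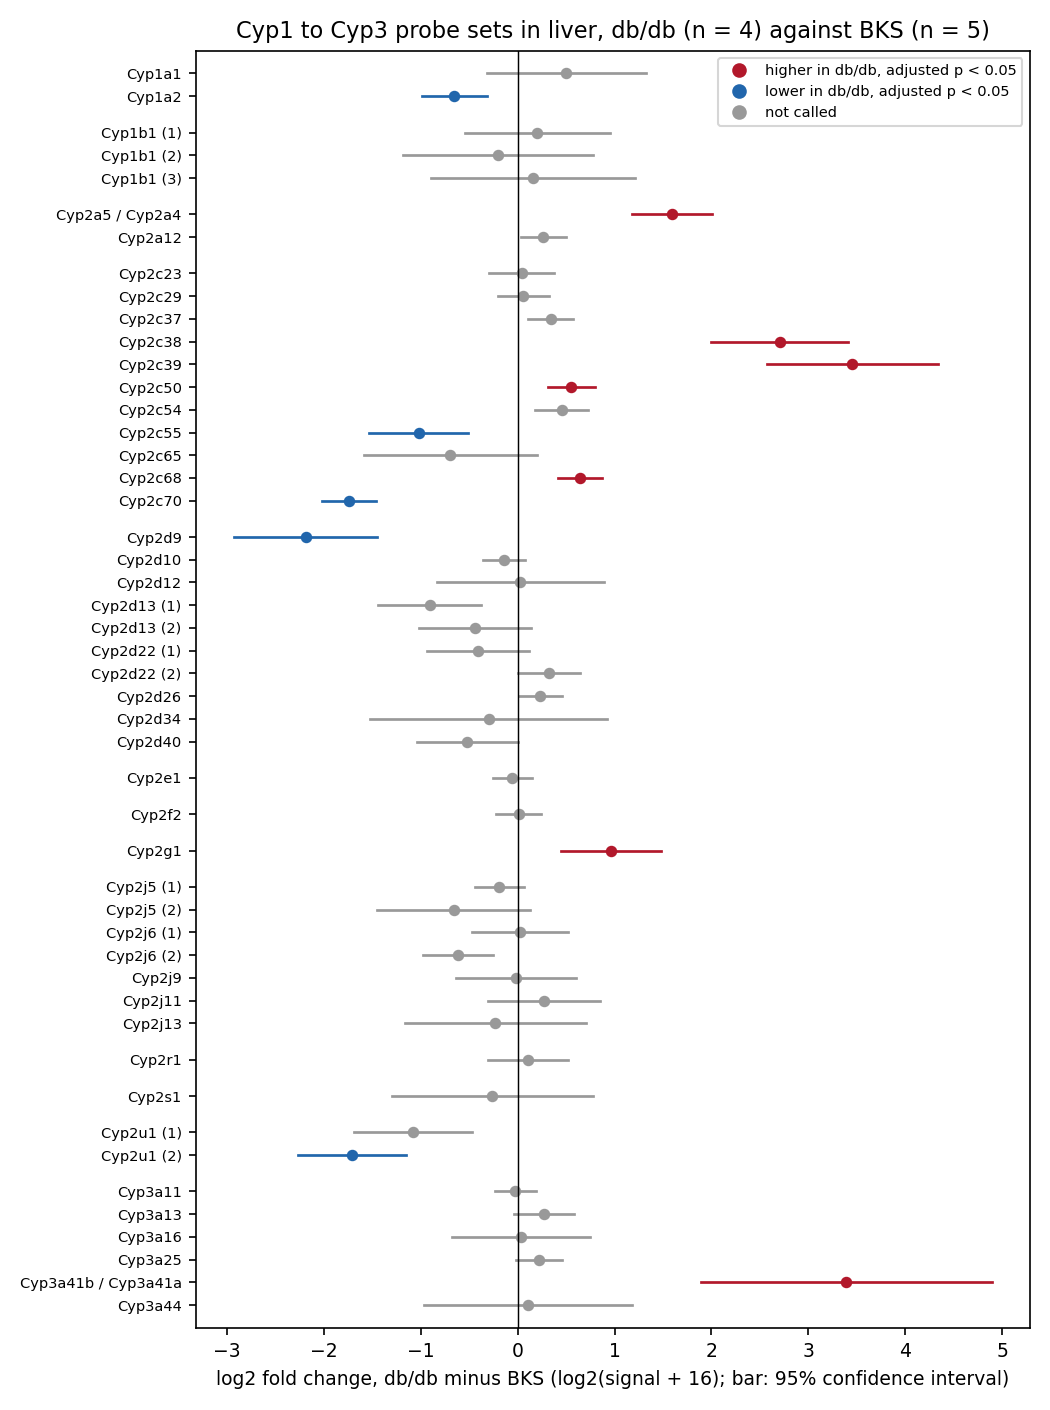
Log2 fold change (db/db minus BKS, horizontal axis) of each of the 48 probe sets of Cyp1, Cyp2 and Cyp3 genes, with points for the estimate, bars for the 95% confidence interval, rows grouped by subfamily and repeated probe sets of a gene numbered in order of identifier. Colours are from the fit over all probe sets, where 7 probe sets were higher and 5 lower; the 4 changes above 1.5 belong to Cyp2c39, Cyp3a41a/b, Cyp2c38 and Cyp2a4/5, and Cyp2d9, Cyp2c70 and Cyp2u1 fell most.

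Cyp2c70 and Cyp2d9 had the largest falls of the 39 genes. Cyp2c70 makes muricholic acids from chenodeoxycholic acid. It stood at 15.04, 14.93, 14.97, 15.07 and 15.10 on BKS 1 to 5 and at 13.50, 13.17, 13.53 and 12.92 on db/db 1 to 4. Every db/db array lay more than a doubling below every BKS array, and the level was 3.35-fold lower (log2 fold change -1.74, SE 0.13, adjusted p = 4.76e-06). The low 18S arrays gave -1.64 and the high 18S arrays -1.86. All 23 alternatives run kept the call.

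Cyp2d9 encodes a testosterone 16-alpha-hydroxylase that is typical of male mouse liver. Its levels were 14.67, 14.63, 14.84, 14.81 and 14.87 on the BKS arrays and 13.42, 13.42, 11.23 and 12.24 on the db/db arrays, with means of 14.77 ± 0.11 (SD, n = 5) and 12.58 ± 1.06 (SD, n = 4). The BKS arrays were tightly grouped and the db/db arrays spread, with db/db 3 and db/db 4 the lowest, and the gene fell 4.56-fold (log2 fold change -2.19, SE 0.35, adjusted p = 0.00222). The low 18S arrays alone gave -1.30 (adjusted p = 0.00218) and the high 18S arrays -3.11 (adjusted p = 9.63e-04), and the other alternatives kept the call too. Its neighbour Cyp2d10 was at 14.62, 14.63, 14.69, 14.76 and 14.65 in BKS and 14.67, 14.57, 14.52 and 14.36 in db/db. That is a difference of -0.14 with a 95% confidence interval of -0.35 to 0.07 (adjusted p = 0.506), and the groups overlapped.

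The probe set shared by Cyp2a4, a testosterone 15-alpha-hydroxylase higher in females, and Cyp2a5, a coumarin 7-hydroxylase, read 12.73, 13.67, 13.05, 12.69 and 13.50 in BKS and 14.66, 14.82, 14.47 and 14.94 in db/db. All 4 db/db arrays were above all 5 BKS arrays, and the signal rose 3.02-fold (log2 fold change 1.59, SE 0.19, adjusted p = 3.37e-04, over all probe sets). Groups stood apart in 6.53% of all probe sets. The low 18S arrays gave 1.59 and the high 18S arrays 1.61, and all 21 alternatives kept the call. The signal cannot be given to either gene. The 250 bases before the 2 gene starts lie outside the transcripts and do not show what the probe set can tell apart. They have 245 identical columns in an alignment of 251 (97.6%). In RefSeq's promoter table for GRCm38.p6 they read, 5′ to 3′, with capitals at bases that differ from the aligned partner or face a gap in it:

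Cyp2a4, chr7:26306942-26307191, plus strand: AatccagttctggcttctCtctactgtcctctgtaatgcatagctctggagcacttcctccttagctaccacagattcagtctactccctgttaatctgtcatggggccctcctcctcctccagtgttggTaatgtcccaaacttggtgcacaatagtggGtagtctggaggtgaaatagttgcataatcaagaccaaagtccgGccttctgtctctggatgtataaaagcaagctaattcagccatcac

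Cyp2a5, chr7:26835089-26835338, plus strand: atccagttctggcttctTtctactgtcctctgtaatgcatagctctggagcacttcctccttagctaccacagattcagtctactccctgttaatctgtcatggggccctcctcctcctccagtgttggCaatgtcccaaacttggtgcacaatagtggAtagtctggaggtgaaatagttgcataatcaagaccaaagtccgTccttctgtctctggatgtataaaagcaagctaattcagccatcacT

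Cyp2a12, a steroid hydroxylase of the same subfamily with a probe set of its own, was at 14.13, 14.27, 14.33, 14.28 and 14.47 in BKS and 14.69, 14.58, 14.43 and 14.55 in db/db. The difference of 0.26 did not pass (95% confidence interval 0.04 to 0.49, adjusted p = 0.181), and 1 BKS array lay within the db/db range.

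Cyp3a enzymes oxidise a wide range of drugs and steroids, and here 1 signal of the subfamily rose while the others stayed uncalled. The probe set shared by Cyp3a41a and Cyp3a41b, which female mouse liver expresses, read 7.71, 6.51, 10.40, 8.45 and 8.79 on BKS 1 to 5 and 10.22, 11.87, 13.73 and 11.24 on db/db 1 to 4. The groups overlapped, since BKS 3 stood above db/db 1, and both were widely spread, with means of 8.37 ± 1.43 (SD, n = 5) and 11.76 ± 1.47 (SD, n = 4). The signal rose 10.5-fold (log2 fold change 3.39, SE 0.70, adjusted p = 0.0163, over all probe sets). Without db/db 3, the highest array, it was at 2.74 and missed the threshold (adjusted p = 0.0640), as it did with eBayes without a trend and with robust eBayes (adjusted p = 0.119 and 0.147). The low 18S arrays alone gave 2.84 (adjusted p = 0.229) and the high 18S arrays 3.87 (adjusted p = 0.0122).

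Cyp3a44, another gene of female liver next to Cyp3a41a on the chromosome, was dim and its groups overlapped, with 6.46, 6.22, 6.86, 7.82 and 6.04 in BKS and 5.40, 7.07, 7.57 and 7.10 in db/db. Its difference of 0.11 came with a 95% confidence interval of -0.95 to 1.16 (adjusted p = 0.945). In this report 1 probe set serves the first pair and another the third gene. The 250 bases before the starts of these 3 genes (RefSeq, GRCm38.p6, 5′ to 3′) lie outside the transcripts. They do not show what the probe sets can tell apart. Capitals mark the 14 positions that are not the same in all 3:

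Cyp3a41a, chr5:145720137-145720386, minus strand: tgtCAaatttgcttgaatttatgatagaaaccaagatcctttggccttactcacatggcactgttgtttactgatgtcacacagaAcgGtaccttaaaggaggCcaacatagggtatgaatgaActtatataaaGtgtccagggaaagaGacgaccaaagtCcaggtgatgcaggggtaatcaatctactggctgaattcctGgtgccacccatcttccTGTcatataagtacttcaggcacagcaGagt

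Cyp3a41b, chr5:145584731-145584980, minus strand: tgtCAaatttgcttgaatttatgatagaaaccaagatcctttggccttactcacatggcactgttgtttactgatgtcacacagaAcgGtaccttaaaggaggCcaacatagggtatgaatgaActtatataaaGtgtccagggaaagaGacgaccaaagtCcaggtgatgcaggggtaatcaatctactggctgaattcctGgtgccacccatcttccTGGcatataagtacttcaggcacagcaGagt

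Cyp3a44, chr5:145805875-145806124, minus strand: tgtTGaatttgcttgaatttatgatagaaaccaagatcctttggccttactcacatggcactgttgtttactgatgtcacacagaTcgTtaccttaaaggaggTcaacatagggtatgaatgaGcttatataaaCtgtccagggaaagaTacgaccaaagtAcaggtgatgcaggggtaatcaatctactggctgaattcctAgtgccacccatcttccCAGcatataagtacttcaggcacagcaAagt

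The pair Cyp3a41a and Cyp3a41b shares 249 of 250 bases (99.6%), and Cyp3a44 shares 236 with Cyp3a41a (94.4%). The letters AGTTCA, a core motif read by PXR and CAR, were sought on both strands. They are present in Cyp3a41a and Cyp3a41b, starting 130 bases before the gene start, and not in Cyp3a44, where 1 of the capital positions falls within them. They also occur in the windows of Cyp2c50 and Cyp3a11 and in 1 of the 2 windows of Cyp2c39, so in 5 of the 35 members that have a window, against 11.8% of all 32851 windows of this length. The STAT5 letters TTCNNNGAA were found in 1 member, the dim Cyp2j11, and in 7.02% of all windows. GCGTG, the core read by AHR, was found in 5 members (Cyp1a1, Cyp1b1, Cyp2c68, Cyp2j9 and Cyp2j13) and in 28.2% of all windows. These matches describe letters in a short window and nothing about binding.

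The remaining Cyp3a genes were not called. Cyp3a11, the main drug-oxidising Cyp3a of mouse liver and a classic PXR target, was at 15.29, 15.16, 15.30, 15.31 and 15.30 in BKS and 15.12, 15.22, 15.31 and 15.32 in db/db, a difference of -0.03 (95% confidence interval -0.23 to 0.18, adjusted p = 0.931). Cyp3a25 was at 0.22 (interval -0.01 to 0.45, adjusted p = 0.313) and Cyp3a13, which is also expressed in gut, at 0.27 (adjusted p = 0.341). Cyp3a16, known from fetal and female liver, stayed near the bottom of the scale on all 9 arrays, with means of 4.56 ± 0.55 (SD, n = 5) and 4.60 ± 0.53 (SD, n = 4).

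The Cyp2c subfamily, whose members oxidise arachidonic acid, retinoids and drugs, held most of the called genes: 4 of 11 rose and 2 fell. Cyp2c39, a retinoic acid hydroxylase, was dim in BKS (7.25, 7.07, 6.80, 5.52 and 5.39) and clearly above the median gene in db/db (10.39, 9.78, 9.21 and 10.08). No array of the 2 groups overlapped, and the gene rose 11.0-fold (log2 fold change 3.46, SE 0.42, adjusted p = 2.89e-04). Within BKS the high 18S arrays 4 and 5 were the lowest, and the low 18S arrays gave 3.04, the high 18S arrays 4.19. With 64 in place of 16 added to the signal it was 2.83.

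Cyp2c38, which adjoins Cyp2c39 on the chromosome and encodes an arachidonic acid oxygenase, rose 6.53-fold (log2 fold change 2.71, SE 0.34, adjusted p = 3.51e-04). It stood at 11.34, 11.48, 10.33, 9.85 and 9.65 on BKS 1 to 5 and 13.38, 13.05, 12.98 and 13.54 on db/db 1 to 4. The db/db arrays were close together and all above BKS, where BKS 4 and 5 were again the lowest, and the 2 array sets gave 2.16 (low 18S) and 3.51 (high 18S). For Cyp2c38 and Cyp2c39 all 23 alternatives kept the call.

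Smaller rises were seen in Cyp2c68 and Cyp2c50, both bright in both groups. Cyp2c68 read 14.05, 13.86, 13.67, 13.89 and 13.77 in BKS and 14.49, 14.51, 14.50 and 14.46 in db/db (1.56-fold, log2 fold change 0.64, SE 0.10, adjusted p = 0.00174). Cyp2c50, an arachidonic acid epoxygenase of perivenous hepatocytes, read 14.81, 14.66, 14.72, 14.54 and 14.48 and 15.37, 15.27, 15.06 and 15.08 (1.47-fold, log2 fold change 0.55, SE 0.11, adjusted p = 0.00930). Neither gene's groups overlapped. Both calls were lost with median centring (adjusted p = 0.262 for Cyp2c68 and 0.514 for Cyp2c50) and without normalization between arrays (0.106 and 0.335), with the same sign. So were they in the low 18S arrays alone (0.0739 and 0.0682), and that of Cyp2c50 also in the high 18S arrays (0.0810) and with eBayes without a trend (0.0955).

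Cyp2c37 and Cyp2c54, which precede Cyp2c50 in the cluster, did not pass. Cyp2c54 stood at 14.50, 13.95, 14.17, 14.01 and 13.95 in BKS and 14.59, 14.65, 14.57 and 14.46 in db/db, a difference of 0.45 just outside the threshold (adjusted p = 0.0515), and BKS 1 lay within the db/db range. Cyp2c37, an epoxygenase, stood at 13.88, 13.76, 13.78, 13.67 and 13.59 and 13.94, 14.13, 14.02 and 14.20, a difference of 0.34 (adjusted p = 0.0728), with groups that did not overlap. Both passed once the 18S split was in the model (adjusted p = 0.0204 and 0.0443). Cyp2c29, an abundant epoxygenase and CAR target, was at 14.68, 14.45, 14.63, 14.61 and 14.55 in BKS and 14.73, 14.32, 14.85 and 14.68 in db/db, a difference of 0.06 (95% confidence interval -0.19 to 0.31, adjusted p = 0.854). Cyp2c23, an epoxygenase best known from kidney, differed by 0.04 (adjusted p = 0.932).

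Cyp2c55, an arachidonic acid hydroxylase also found in colon, fell 2.03-fold (log2 fold change -1.02, SE 0.24, adjusted p = 0.0226). Its BKS arrays read 9.28, 8.34, 9.01, 9.22 and 9.53 and its db/db arrays 7.99, 7.99, 8.14 and 8.11. BKS 2 was close to the db/db range, though above it. The call was lost in 9 of 23 alternatives, with adjusted p up to 0.218. Among these were the fits without BKS 1, 4 or 5 or without db/db 1, 2 or 3, at adjusted p from 0.0520 to 0.0602. Cyp2c65, which lies beside it, was dim, with means of 5.54 ± 0.64 (SD, n = 5) and 4.85 ± 0.57 (SD, n = 4), and did not pass (-0.69, adjusted p = 0.428).

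Outside the Cyp2c subfamily Cyp2u1 and Cyp2j6 fell. Cyp2u1, which hydroxylates long-chain fatty acids, stood at 8.90, 9.59, 9.03, 9.83 and 10.08 in BKS and 8.14, 7.68, 7.59 and 7.70 in db/db. All db/db arrays were lower than all BKS arrays (3.27-fold, log2 fold change -1.71, SE 0.26, adjusted p = 0.00147). Its other probe set also separated the groups but did not pass among all probe sets (-1.08, adjusted p = 0.0622). In the low 18S arrays alone Cyp2u1 was at -1.26 and missed the threshold (adjusted p = 0.0701), and in the high 18S arrays it was at -2.31 (adjusted p = 0.00307).

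Cyp2j6 was the 1 called gene of the 5 measured in its subfamily, known for epoxidising arachidonic acid. It was at 10.34, 9.67, 10.07, 10.07 and 10.30 in BKS and 9.62, 9.41, 9.51 and 9.37 in db/db. It fell 1.53-fold, just inside the threshold (log2 fold change -0.61, SE 0.16, adjusted p = 0.0413). This call is fragile: it was lost in 16 of 23 alternatives, among them the fits without any 1 array other than BKS 2 (adjusted p from 0.0651 to 0.102). In the fit over all probe sets the probe set used for the gene missed the threshold (adjusted p = 0.0746). The gene's other probe set stood at 0.03 (adjusted p = 0.982). Cyp2j5, the main liver member and an epoxygenase, did not pass on its brighter probe set (-0.19, 95% confidence interval -0.43 to 0.05, adjusted p = 0.422). Its second probe set, at -0.66 (adjusted p = 0.493), read 12.46, 12.67, 12.81, 11.31 and 11.13 in BKS, where the 2 high 18S arrays were lowest, and 11.85, 12.14, 10.82 and 10.86 in db/db. That probe set passed with the split as a block (adjusted p = 0.0173).

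Of the AHR-controlled family 1, only Cyp1a2 was bright, and it fell. Cyp1a2, a perivenous enzyme that oxidises caffeine and aromatic amines, read 14.72, 14.53, 14.56, 14.56 and 14.57 in BKS and 13.99, 14.46, 13.55 and 13.73 in db/db. The groups did not overlap, but db/db 2 came within 0.1 of the lowest BKS array, and the fall was 1.57-fold (log2 fold change -0.65, SE 0.15, adjusted p = 0.0254). The low 18S arrays gave -0.37 and the high 18S arrays -0.93. Of 23 alternatives 10 lost the call (adjusted p up to 0.333), with the sign kept, among them the fits without BKS 1, 3 or 4 or without db/db 1, 3 or 4 (adjusted p from 0.0512 to 0.0863). Cyp1a1, the most inducible AHR target, was dim at 6.43, 6.36, 6.66, 6.88 and 5.65 and 6.83, 6.37, 7.27 and 7.14 and had the largest positive change among the uncalled genes (0.50, 95% confidence interval -0.26 to 1.26, adjusted p = 0.522). Cyp1b1, which acts on estrogens outside the liver, ran from -0.20 to 0.20 on its 3 probe sets, none of them called.

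Cyp2g1, an enzyme best known from the olfactory mucosa, rose 1.95-fold from a level not far above the median gene (log2 fold change 0.96, SE 0.24, adjusted p = 0.0314). The arrays read 7.94, 8.25, 7.71, 7.95 and 8.83 in BKS and 9.16, 9.28, 9.05 and 8.90 in db/db, with BKS 5 close to the db/db range. Its call was lost in 12 of 23 alternatives, with adjusted p up to 0.489. It was kept without BKS 2 or BKS 5, and the fits without any 1 of the other 7 arrays gave adjusted p from 0.0515 to 0.0911.

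**Figure D2:**
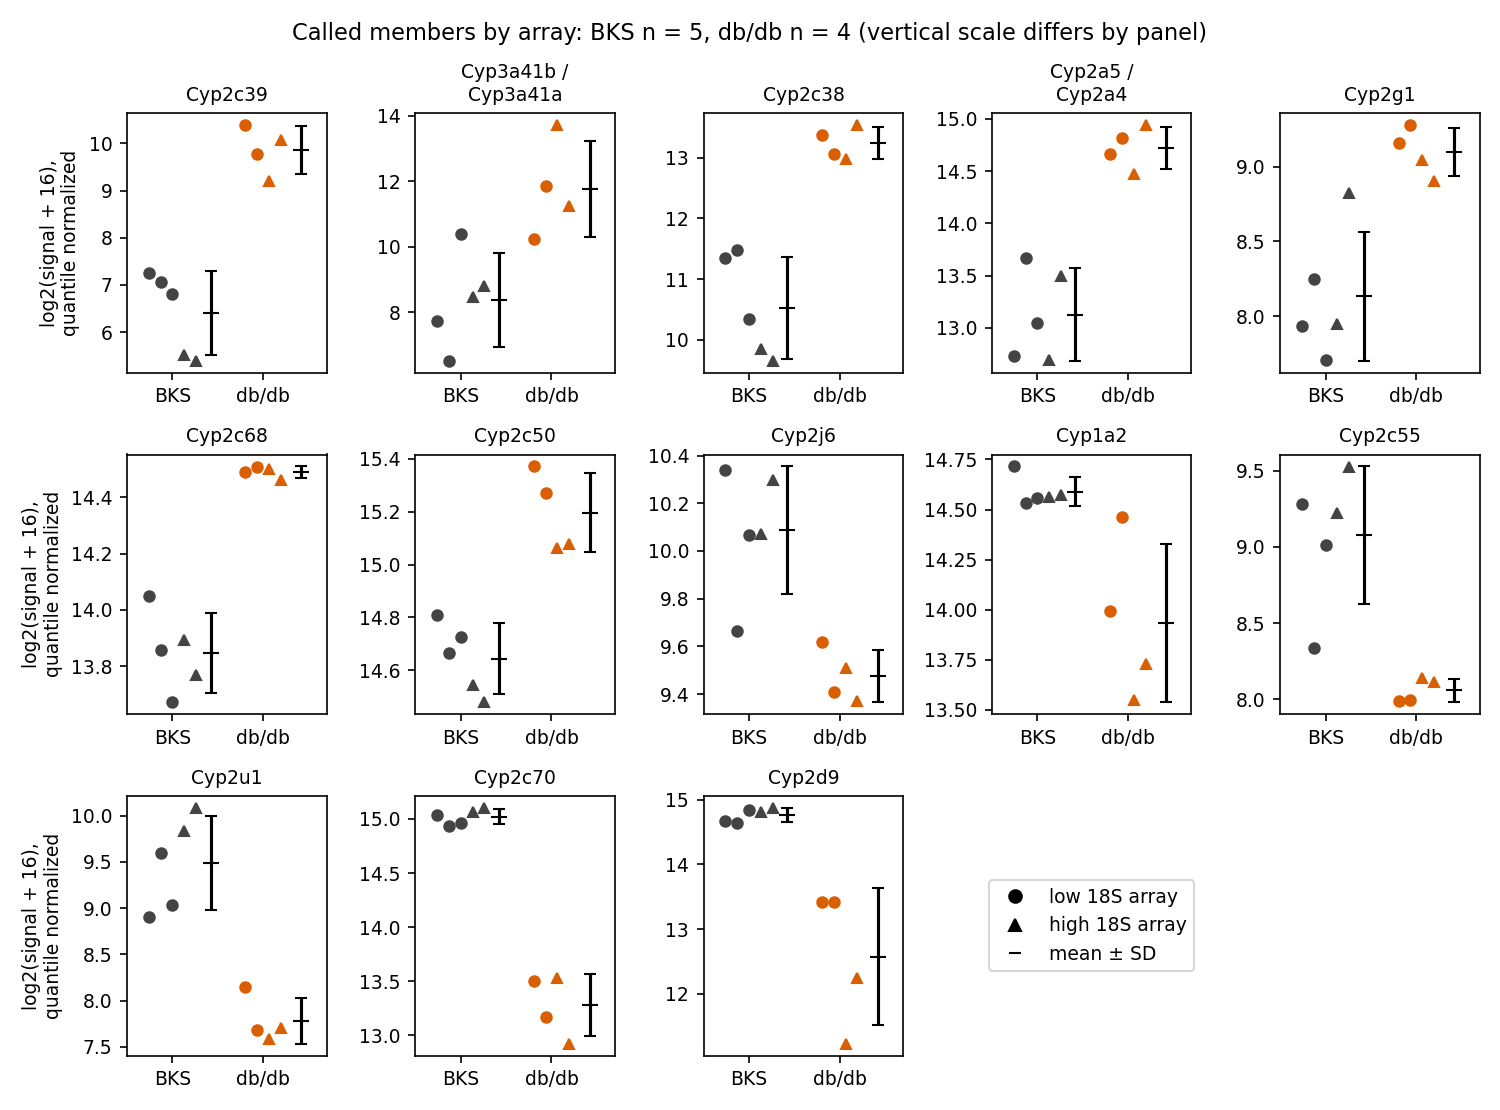
Level on each array (vertical axis, log2(signal + 16), quantile normalized, own scale in each panel) of the 11 called genes and the 2 shared probe sets in BKS (n = 5) and db/db (n = 4), with circles for low and triangles for high 18S arrays and bars for the mean ± SD. The groups are apart in every panel except Cyp3a41a/b, where BKS 3 (10.40) stands above db/db 1 (10.22).

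Cyp2e1 and Cyp2f2 had no call and narrow intervals. Cyp2e1, the perivenous ethanol-oxidising enzyme, read 15.32, 15.25, 15.30, 15.30 and 15.24 in BKS and 15.22, 15.15, 15.27 and 15.26 in db/db. The difference of -0.06 had a 95% confidence interval of -0.25 to 0.14 (adjusted p = 0.821). Cyp2f2, which marks periportal hepatocytes, read 14.93, 15.04, 14.95, 14.99 and 15.16 and 15.07, 15.21, 14.93 and 14.88, a difference of 0.01 (interval -0.21 to 0.23, adjusted p = 0.979). Groups overlapped for both genes. These probe sets and that of Cyp3a11 were each brighter than over 99% of genes, and whether signals this high can still follow a change in RNA was not tested.

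Of the 28 genes that did not pass, 18 were brighter than the median gene. The 10 brightest of these (Cyp2e1, Cyp3a11, Cyp2f2, Cyp2d26, Cyp2d10, Cyp2c29, Cyp2a12, Cyp3a25, Cyp2c54 and Cyp2c37) had log2 fold changes between -0.14 and 0.45, with intervals that reached from -0.35 to 0.72. Cyp2d26 differed by 0.24 (adjusted p = 0.213) with groups that did not overlap, as did Cyp2d40 at -0.52 (adjusted p = 0.277). Cyp2d13, which RefSeq lists as a transcribed pseudogene, had the largest negative change among the uncalled genes. It was at 10.77, 10.46, 10.93, 10.38 and 10.29 in BKS and 10.18, 10.20, 9.04 and 9.22 in db/db, -0.91 apart and just outside the threshold (adjusted p = 0.0520), with no overlap. It passed with the 18S set in the model (adjusted p = 0.00464). The gene's other probe set was at -0.44 with overlapping groups. It did not pass among all probe sets (adjusted p = 0.544), nor with the 18S set in the model (adjusted p = 0.226). Cyp2d22 had 2 probe sets of opposite sign, -0.41 and 0.32, neither called. Cyp2r1, the vitamin D 25-hydroxylase, differed by 0.11 (interval -0.29 to 0.51), and Cyp2j9 by -0.02 (adjusted p = 0.985).

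The other 10 uncalled genes were dimmer than the median gene: Cyp1a1, Cyp1b1, Cyp2c65, Cyp2d12, Cyp2d34, Cyp2j11, Cyp2j13, Cyp2s1, Cyp3a16 and Cyp3a44. None of the dim members was called (10 of 39; limma, adjusted p from 0.428 to 0.982). Over all genes, dim or bright, 5.49% were called, and the share among dim genes alone was not determined. Their log2 fold changes ran from -0.69 to 0.50 and their 95% confidence intervals reached from -1.58 to 1.26. The median standard error was 0.39 for them and 0.11 for the 18 brighter uncalled genes. The values table holds no detection calls, and whether these genes were above background is unknown.

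Along the chromosome called genes adjoined genes of the same call, of the opposite call and of no call. In the Cyp2c cluster, in chromosome order, Cyp2c55 fell, Cyp2c29 was at 0.06, the adjoining Cyp2c39 and Cyp2c38 rose, Cyp2c68 and Cyp2c50 rose, and Cyp2c70, which follows Cyp2c50, fell. Cyp2c66, Cyp2c67, Cyp2c40 and Cyp2c69 lie between them and had no probe set named for them alone. In the Cyp2d cluster 1 of 8 measured genes, Cyp2d9, was called, and the median over the 8 was -0.35. In the Cyp3a cluster the shared signal of Cyp3a41a and Cyp3a41b rose between Cyp3a16 and Cyp3a44, which stood at 0.04 and 0.11. Genes within a cluster are close in sequence, and which other members each probe set also binds was not tested.

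**Figure D3:**
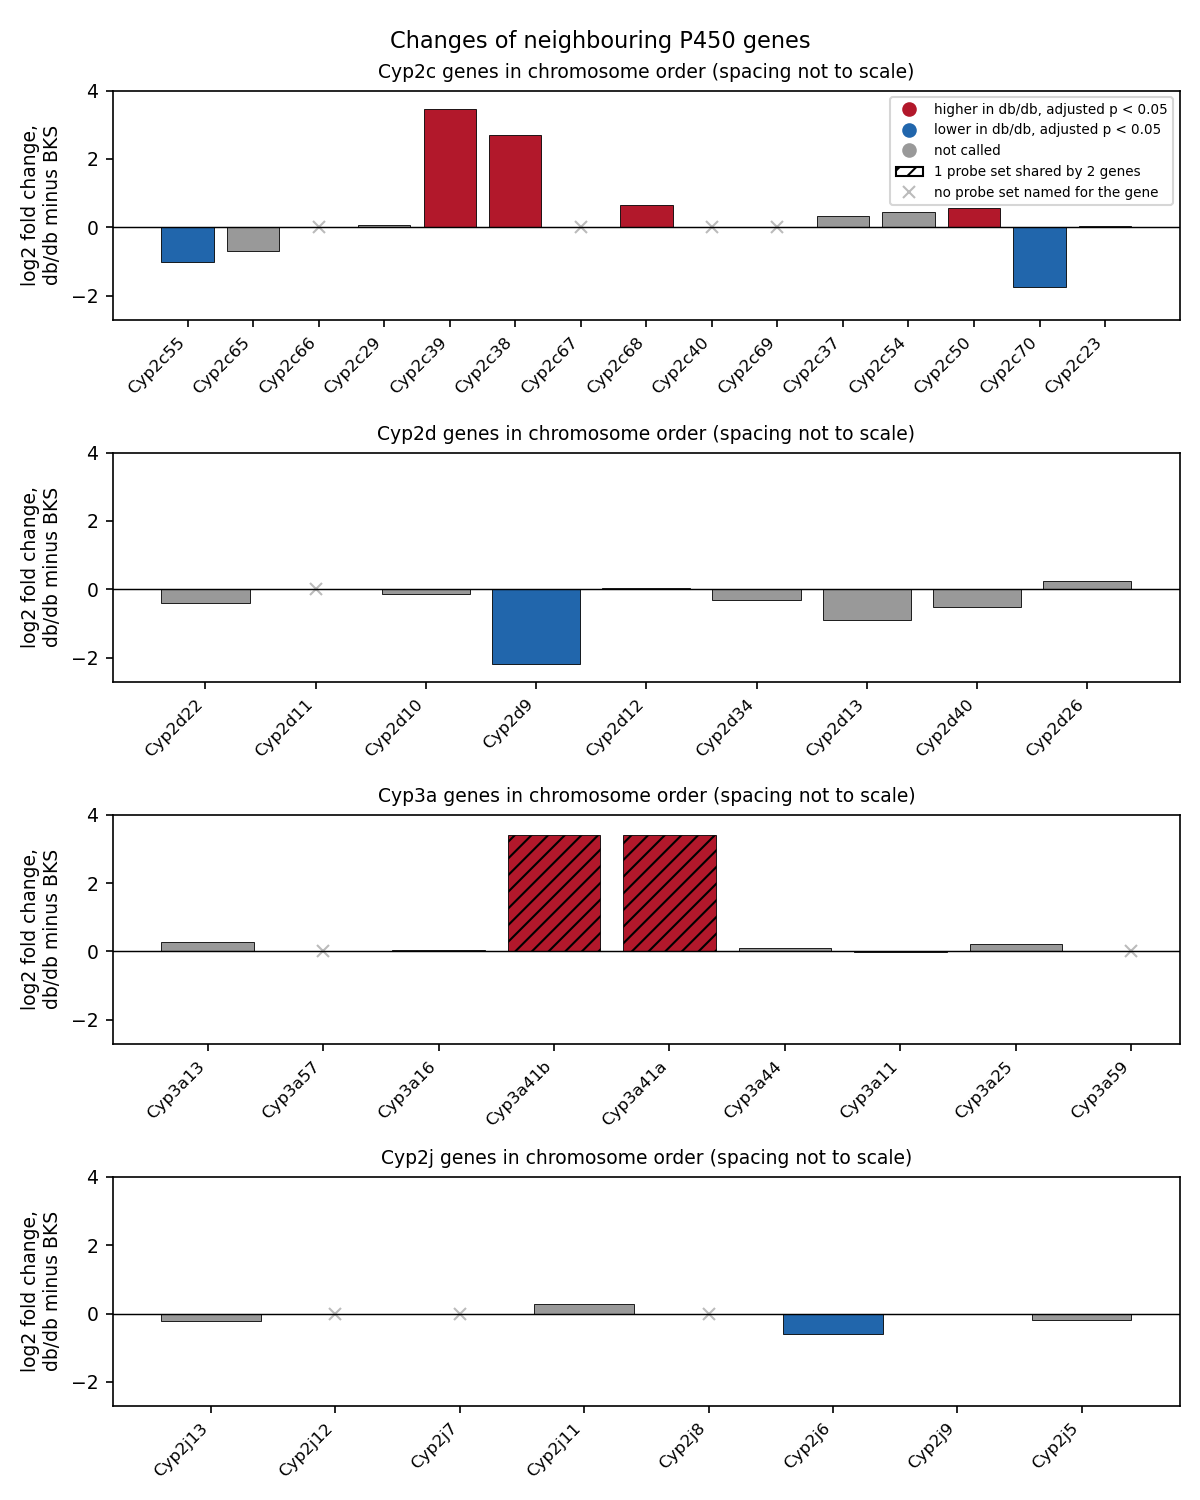
Log2 fold change (db/db minus BKS, vertical axis) of the Cyp2c, Cyp2d, Cyp3a and Cyp2j genes in their order along the chromosome (horizontal axis, spacing not to scale), with bars coloured by call, hatched where 1 probe set serves 2 genes and a cross where no probe set is named for the gene. Cyp2c39 (3.46) and Cyp2c38 (2.71) adjoin, while Cyp2c50 at 0.55 lies beside Cyp2c70 at -1.74 and Cyp2d10 at -0.14 beside Cyp2d9 at -2.19.

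Genes known to control the P450 genes moved in both directions. Of 38 measured regulators 6 rose and 5 fell, where 2.89% of all genes rose and 2.60% fell (median -0.16, against 0.00 for all genes). With the 18S block 9 rose and 8 fell, where 8.23% of all genes were called. CAR (Nr1i3, 1.00, adjusted p = 0.0155) and PXR (Nr1i2, 0.70, adjusted p = 0.0234) rose. Over the 9 fits that left out 1 array, Nr1i3 kept its call in 7 and Nr1i2 in 6. Their adjusted p reached 0.0537 and 0.0866. Nr1i2 read 8.89, 8.65, 8.88, 8.83 and 8.70 in BKS and 9.23, 9.59, 9.69 and 9.45 in db/db, with no overlap, while for Nr1i3 BKS 2 (10.81) lay above db/db 4 (10.70). Ahr itself was at 0.14, adjusted p = 0.748, its partner Arnt at -0.69, adjusted p = 0.0586, and Hnf4a, the main factor of hepatocyte identity, at -0.35, adjusted p = 0.125. The smallest adjusted p among the falls belonged to Foxa1, a pioneer factor of liver genes (-2.10, adjusted p = 2.45e-04), and Bcl6, a repressor that takes part in sex-biased liver expression (-1.22, adjusted p = 0.00803). Among the rises that of Tef, a clock-controlled activator of detoxification genes, came first (1.43, adjusted p = 0.0130). Tef was at 1.90 in the low 18S arrays and at 0.74 in the high 18S arrays.

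Of 19 other genes known as PXR or CAR targets 10 rose and 1 fell, where 2.89% of all genes rose and 2.60% fell (median log2 fold change 0.69, against 0.00 for all genes). Abcc4, an efflux pump (3.94, adjusted p = 1.81e-04), and Gsta2, a glutathione transferase (1.71, adjusted p = 3.19e-04), rose, and Ces2a, a carboxylesterase, fell (-1.15, adjusted p = 1.67e-04). Of 6 other AHR targets 1 rose, the quinone reductase Nqo1 (1.60, adjusted p = 0.00873), and none fell (median 0.10). With the 18S block 2 rose, where 8.23% of all genes were called. The second was Nfe2l2 (adjusted p = 0.0125), which is also counted among the regulators. Alas1, not called, is in both the heme list and the PXR and CAR list. Among 17 measured genes of electron supply and heme, Urod, an enzyme of heme synthesis (0.93, adjusted p = 5.02e-04), and Pgrmc2, a heme-binding membrane protein (0.50, adjusted p = 0.0339), rose and none fell (median -0.02), while with the 18S split as a block 2 rose and 2 fell. Cyb5a, which passes electrons to P450 enzymes, was at 0.08, adjusted p = 0.769, and the reductase Por was not analysed here.

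**Figure D4:**
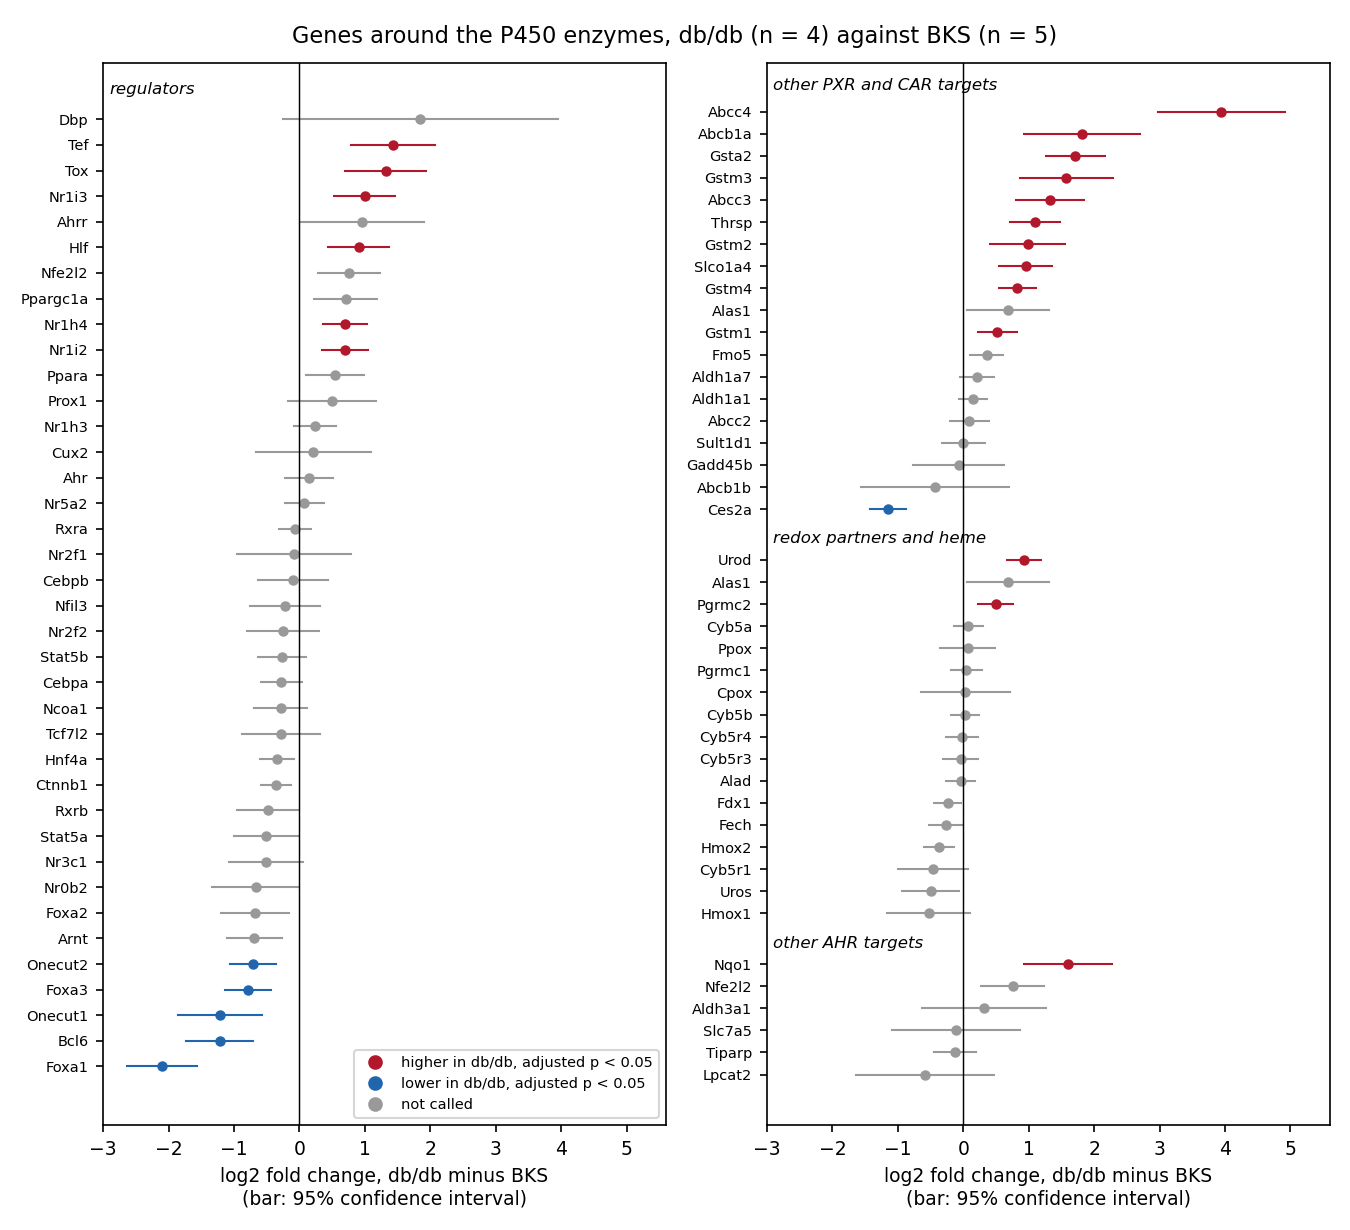
Log2 fold change (db/db minus BKS, horizontal axis) with 95% confidence interval for measured genes of 4 lists: regulators of P450 genes, other PXR and CAR targets, redox partners and heme enzymes, and other AHR targets (db/db n = 4, BKS n = 5). Of the 11 coloured points of the PXR and CAR list 10 lie to the right of 0, led by Abcc4 at 3.94, and the regulators run both ways, from Foxa1 at -2.10 to Tef at 1.43 among those called.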

How the data were processed

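Liver RNA, 8 µg per sample, was labelled with biotin and hybridised to single-colour Affymetrix arrays, per the labels' protocols. The authors deposited 1 linear intensity per probe set and array. Which software and background correction were used is not given in the sources used here. With 2% cut off at each end, array means came to between 500.003 and 500.005, so the deposited intensities had been scaled to a common level.

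Values were transformed as log2(intensity + 16) and quantile normalized (limma 3.58.1, R 4.3.3). For a gene the probe set with the highest mean among those carrying its symbol alone was used (34945 probe sets, 18193 genes). Probe sets shared by several genes were tested in a second fit over all 45037 probe sets that are not controls. The test was limma (lmFit, eBayes with an intensity trend, group as the only term, two-sided) with Benjamini-Hochberg adjustment and a threshold of 0.05. Alternatives kept each gene's probe set and the normalization over 9 arrays unless they changed that choice. The fits were tested on simulated data.

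The members, lists, tests and alternatives were chosen with earlier results of these data known, including the 18S split. Named were all called members and shared probe sets, the 10 brightest uncalled members, those with the largest uncalled change or nearest the threshold, and from each list up to 2 per direction by adjusted p, with Por, Ahr, Nr1i2, Nr1i3 and Hnf4a. Members added outside that rule were named to account for every gene, and a few genes of the lists were named outside it too. Promoter windows came from RefSeq (GRCm38.p6) and matched 35 of 43 members; only the 250 bases before each start were used. A planned comparison of protein sequences was not made. No array pair held identical values, and precision is limited by the number of arrays.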

Additional observations from a re-analysis of the deposited data

Results flagged for a closer look

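In 2 of 50 groups of arrays tested 1 array stood far from the others, where chance alone gives about 1 in 20 groups. Cyp1a2 read 14.72 on BKS 1, against 14.53 to 14.57 on the other BKS arrays. Cyp3a11 read 15.16 on BKS 2, against 15.29 to 15.31 on the others.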

How the results depend on the processing

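No called member changed sign over 295 combinations of called member and alternative, and 60 of them lost the call. The 5 higher and 6 lower P450 genes became 2 and 4 with median centring and 3 and 5 without normalization between arrays. Over all genes 526 were higher and 473 lower, which became 323 and 212 with median centring and 468 and 450 without normalization. There were 3 and 3 P450 genes with eBayes without a trend, 2 and 2 in the low 18S arrays alone and 3 and 5 in the high. Leaving out each array gave 4 to 5 higher and 3 to 6 lower, with 3 lower without BKS 1, BKS 4 or db/db 3. Of the probe sets 7 were higher and 5 lower, which became 4 and 3 with median centring and 4 and 5 without normalization. There were 3 and 2 with eBayes without a trend and 8 and 9 with the 18S split as a block. The low 18S arrays gave 3 and 2 and the high 18S arrays 4 and 5. Alternatives not named in this paragraph changed none of these counts more than 1.5-fold. Leaving out each array gave 5 to 7 higher and 3 to 5 lower probe sets, with 3 lower without BKS 1, 3, 4 or 5 or db/db 3 or 4. The low and high 18S fits have fewer arrays; for the other changes the cause was not tested. With the replicate block there were 5 higher and 6 lower genes and 7 higher and 4 lower probe sets. The numbers were not taken as pairs: correlations of same-numbered deviations ran from -0.07 to 0.17, and 4 of 8 arrays correlated best with their own number. Dim probe sets have wide intervals and no detection calls, which limits what can be said of them.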
